A study of Homo sapiens with 12 samples.

Results

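The region described here is the stretch of human chromosome 8 from 128200000 to 130800000 (hg19, 2.6 Mb) that holds MYC, its neighbour PVT1 and the sequence far downstream of both. Its members are the GATA1 and TAL1 ChIP-seq intervals of control K562 cells that overlap this stretch, 55 of the 24654 distinct intervals listed on chromosomes 1 to 22 and X. K562 is a human erythroleukemia line with erythroid features. The series holds 12 libraries from K562 cells that were either controls or had GATA1 or TAL1 knocked down with a short hairpin RNA from a lentivirus, with 1 library per antibody and condition. The interval lists of 2 libraries were used, GATA1 (antibody sc-1233) and TAL1 (antibody sc-12984), both from control cells. The title of the TAL1 library carries the label Sp and that of the GATA1 library does not. Any effect of that difference was not tested. The other 10 libraries were not analysed here, so no knockdown, histone mark or input enters any value. The antibodies were applied to chromatin that had been cut by micrococcal nuclease to the size of mono- or dinucleosomes.

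MYC encodes a basic helix-loop-helix transcription factor that drives cell growth and division. PVT1, the next gene downstream, makes a long non-coding RNA and has regulatory elements of MYC within its body. GATA1 is the zinc finger factor required for red cell and megakaryocyte maturation, and in mouse erythroid cells it lowers Myc expression as maturation proceeds. TAL1, of the same broad family of helix-loop-helix factors as MYC, works with GATA1, LMO2 and LDB1 on erythroid enhancers. In mice, a cluster of enhancers far downstream of Myc is needed for its expression in blood stem and progenitor cells, and screens with CRISPR interference in K562 cells located elements acting on MYC both within PVT1 and far downstream of it. The lists hold positions only. They measure neither enhancer activity nor MYC expression, so the word enhancer here is background and not a result.

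In RefSeq's gene order (GRCh38.p14, used for names and order only), CASC11, a long non-coding RNA gene, comes just before MYC. The 21 genes between MYC and GSDMC, the next protein-coding gene after MYC, are long non-coding RNAs, microRNAs or pseudogenes. They start with PVT1 and include LINC00824, LINC00976, LINC00977 and CCDC26. Because that build is not hg19, no interval was assigned to a gene other than MYC and PVT1. MYC runs from 128748 to 128754 kb and PVT1 from 128807 to 129114 kb (hg19, rounded to 1 kb). All distances below count from the MYC start at 128748 kb, and since that start is rounded, each distance to it is good to about 1 kb only.

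Every TAL1 interval of the region was also a GATA1 interval. The GATA1 list held 55 intervals there and the TAL1 list 19. All 19 had the same start and end in both lists, 36 were in the GATA1 list alone, and 0 were in the TAL1 list alone. Over the whole lists, 0 intervals overlapped one of the other list only in part. Identical boundaries are therefore a property of the lists and not a measured agreement of the 2 factors. TAL1 intervals of the region were shared in 100% of cases (95% exact interval 82.4 to 100%), against 75.1% (70.4 to 79.5%) on chromosome 8 outside the region and 78.9% over the whole TAL1 list. Single chromosomes ranged from 59.4% on chromosome 13 to 86.0% on chromosome 6, and the value of chromosome 6 lies inside the interval of the region. The 75.1% and the 78.9% lie below that interval, which counts neighbouring intervals as separate units. With 19 intervals, many of them neighbours, the region and a chromosome such as 6 are not distinguished. Whether the region differs from the whole TAL1 list was not tested.

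The share of GATA1 intervals that were also TAL1 intervals was close to that of the whole list. It was 34.5% in the region (19 of 55, 95% exact interval 22.2 to 48.6%), 32.9% on chromosome 8 outside the region (29.8 to 36.2%) and 30.9% over the whole GATA1 list. The interval of the region contains both other values. The binomial intervals treat each listed interval as a unit and cover counting error only. There are no replicates, and the depth of each library is unknown.

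Intervals were dense in the region. It held 21.2 intervals per Mb, against 6.44 per Mb on the rest of chromosome 8 and 8.12 per Mb over chromosomes 1 to 22 and X, a ratio of 2.61 to the last. Shared intervals numbered 7.31 per Mb in the region and 2.31 per Mb in the whole lists (ratio 3.16), and GATA1-only intervals 13.8 per Mb in the region and 5.18 per Mb in the whole lists (ratio 2.67). The densest whole chromosome, 19, had 17.9 intervals per Mb. Other stretches of 2.6 Mb were not compared, so the place of the region among them is unknown. The region was chosen with earlier results of these data known, so its density is a description only. DNA copy number along chromosome 8 in these cells was not measured, and its part in the density was not tested.

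**Figure D1:**
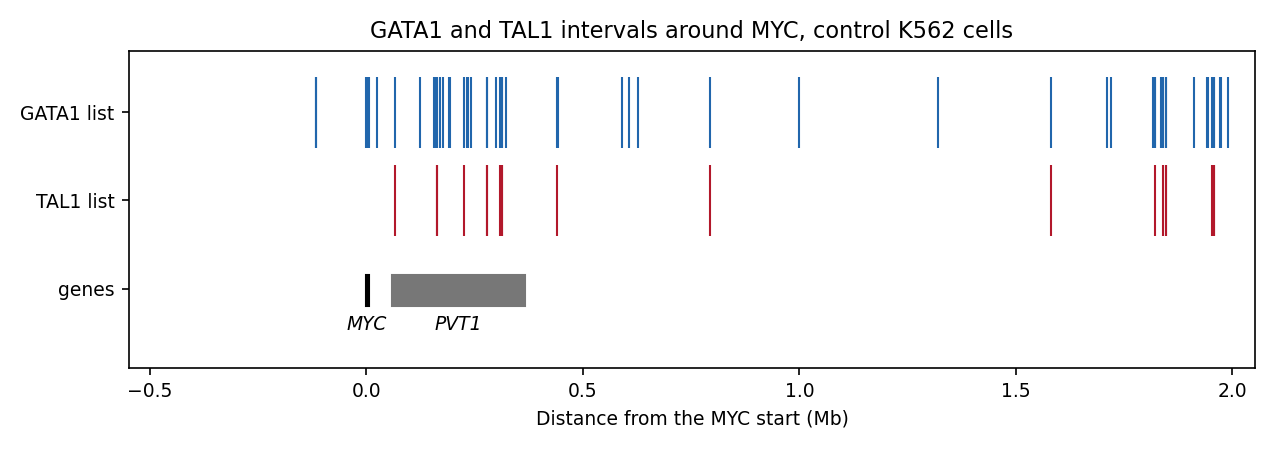
Intervals of the GATA1 list (upper row) and the TAL1 list (middle row) by distance from the MYC start in Mb, negative upstream; each tick is 1 interval, its thickness is not to scale, and the lowest row shows MYC and PVT1 to scale. Every one of the 19 TAL1 ticks stands below a GATA1 tick, and no TAL1 tick stands at MYC, which has 3 GATA1 ticks. These 3 are too few to distinguish the TAL1 share at MYC from that of the whole GATA1 list.

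MYC itself had GATA1 intervals and no TAL1 interval. The interval at 128748189 to 128748575 (387 bp) lay at the MYC start. The interval at 128747476 to 128747793 (318 bp) lay within 1 kb upstream of it. At the other end of the gene, the interval at 128753870 to 128754842 began 5.87 kb downstream of the start and reached past the rounded end of MYC, so it cannot be placed inside or outside the gene at this precision. It measured 973 bp, the widest GATA1-only interval of the region, and 0.299% of all GATA1-only intervals in the lists were at least as wide. These 3 intervals formed 1 group under the joining rule (intervals with gaps of at most 12.5 kb). None of them was in the TAL1 list, a share of 0% (exact interval 0 to 70.8%). The 30.9% of the whole GATA1 list lies within that interval. With 3 intervals, the share at MYC was thus not distinguished from that of the whole list.

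Upstream of MYC the region held few intervals. The 547 kb before the gene held 2 intervals, at 128630739 to 128630957 and at 128631385 to 128631571, both in the GATA1 list alone and 117 and 116 kb before the MYC start. They were the first intervals of the region, and the 431 kb between its border and the first of them held none. The stretch before MYC had 3.66 intervals per Mb, against 6.44 on chromosome 8 outside the region and 8.12 over chromosomes 1 to 22 and X. With 2 intervals, whether it was sparser than these was not tested. Between MYC and PVT1 there was 1 interval, at 128772872 to 128773323, in the GATA1 list alone and 24.9 kb downstream of the MYC start. No TAL1 interval thus preceded PVT1: the TAL1 list was empty over the first 613 kb of the region, a stretch with 6 GATA1-only intervals. The exact interval of the share in the TAL1 list was 0 to 84.2% before MYC, 0 to 70.8% at MYC and 0 to 97.5% between the genes. Each contains the 30.9% of the whole GATA1 list, so a lower share before PVT1 was not resolved.

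Outside MYC, PVT1 was denser in intervals than the stretch before MYC, the stretch between the genes and the stretch beyond PVT1 taken whole. Its body makes up 11.8% of the region and held 21 of the 55 intervals (38.2%), or 68.4 per Mb. Of these 21, 9 were shared and 12 were GATA1-only. The share in the TAL1 list was 42.9% there (21.8 to 66.0%), against 30.9% over the whole GATA1 list, which lies within the interval. The intervals were spread unevenly along the gene: the first began 5.96 kb after the PVT1 start, and the last 42.6 kb of the gene held none.

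The first TAL1 interval downstream of MYC was at 128812956 to 128813347, shared with GATA1, near the PVT1 start and 65.0 kb from the MYC start. It had no other interval within the joining gap. A GATA1-only interval at 128872050 to 128872424 followed, also alone. The next 6 intervals formed the largest group of the region, which spanned 19.1 kb and lay 157 to 176 kb from the MYC start. Its 2 shared intervals, at 128910685 to 128911395 (711 bp) and 128911613 to 128911881 (269 bp), were 217 bp apart. They had 2 GATA1-only intervals on either side, at 128905152 to 128905330 and 128908108 to 128908228 before them and at 128918602 to 128918834 and 128923848 to 128924275 after them. TAL1 was therefore listed at the middle of this group and not at its flanks.

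Farther along PVT1, 2 GATA1-only intervals lay at 128938395 to 128938732 and 128940613 to 128940913. A group of 4 followed, 224 to 242 kb from the MYC start. It opened with a shared interval of 689 bp at 128972413 to 128973101, and the others were GATA1-only, at 128980102 to 128980293, 128981732 to 128981869 and 128989915 to 128990360. A pair at 129026640 to 129026925 and 129026972 to 129027140 was shared in both members, with 46 bp between them, and had no GATA1-only interval within the joining gap.

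The last group in PVT1 held 5 intervals over 24.0 kb, 299 to 323 kb from the MYC start. Shared intervals lay at 129057096 to 129057602 (507 bp), 129060725 to 129061025 (301 bp) and 129061485 to 129061655 (171 bp). The outermost members, at 129047465 to 129047712 and 129071350 to 129071445, were GATA1-only. As in the first large group of PVT1, the shared members were the inner ones. The GATA1-only members measured 248 and 96 bp here and 121 to 428 bp in that first group. This order was picked out after the positions were seen. Its frequency over the 560 groups of 5 or more in the lists was not computed, so it describes these groups only.

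**Figure D2:**
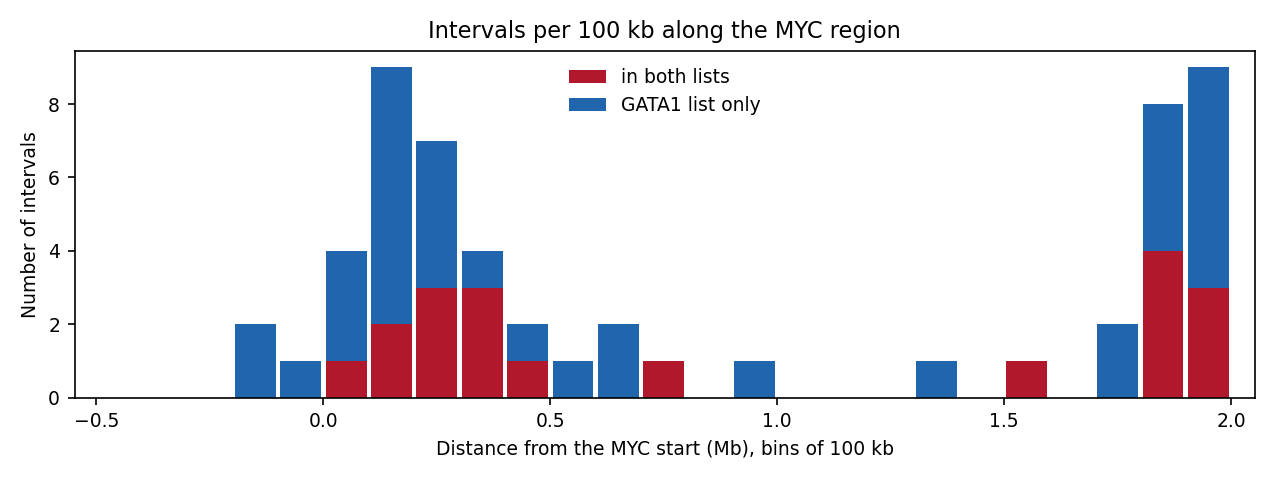
Number of intervals in bins of 100 kb by distance from the MYC start in Mb; red is the count in both lists and blue, stacked on it, the count in the GATA1 list alone. The highest bins are those from 0.1 to 0.3 Mb, in PVT1, and from 1.8 to 2 Mb, with 7 to 9 intervals each.

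Beyond PVT1 the intervals were few for most of the way and then dense again. The stretch from the PVT1 end to the border of the region is 1686 kb long and held 28 intervals, 10 of them shared (35.7%, 18.6 to 55.9%). Of these 28, 11 lay within 1.8 Mb of the MYC start, at 8.60 per Mb over the 1280 kb that they span, a density near the 8.12 per Mb of all chromosomes counted. The other 17 lay 1.82 to 1.99 Mb from the MYC start and spanned 174 kb, which gives 97.7 per Mb. Since the ends of a block are set by its own intervals, and the distance of 1.8 Mb was chosen after the positions were seen, these densities describe the blocks and test nothing. PVT1 and the far block together held 38 of the 55 intervals (69.1%) and 16 of the 19 shared ones. The shared part was 42.9% of the intervals in PVT1 and 41.2% in the far block, against 30.9% over the whole GATA1 list. Whether shared intervals favour these blocks was not tested.

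The sparse stretch between the blocks held 3 TAL1 intervals, all shared and far apart. The first, at 129189020 to 129189549 (530 bp), lay 441 kb from the MYC start and had a GATA1-only interval 123 bp after it. The second, at 129541362 to 129541621 (260 bp, 793 kb), and the third, at 130328955 to 130329296 (342 bp, 1.58 Mb), each stood alone. The longest run of the region without a TAL1 interval, 787 kb, separated the second from the third, and 2 GATA1-only intervals lay in it. The longest run between intervals of either list was 321 kb, from 129746554 to 130067130.

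The far block began with a group of 3, of which the last, at 130570088 to 130570374 (287 bp), was shared. The group of 5 after it spanned 12.0 kb at 1.84 to 1.85 Mb from the MYC start. Its shared intervals were at 130587011 to 130587362 (352 bp), 130594271 to 130594742 (472 bp) and 130595163 to 130596139 (977 bp), and its GATA1-only intervals at 130584141 to 130584314 and 130587774 to 130588083. The interval of 977 bp was the widest of the region, and 0.569% of all shared intervals in the lists were at least as wide.

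The second group of 5 in the far block spanned 15.4 kb at 1.94 to 1.96 Mb. Here the GATA1-only intervals came first, at 130690044 to 130690437 and 130691845 to 130691961. The shared intervals followed at 130701688 to 130701996 (309 bp), 130704594 to 130704857 (264 bp) and 130704899 to 130705436 (538 bp), the last 2 of them 41 bp apart. That was the smallest gap in the region. After this group only GATA1 was listed. The last interval, at 130738477 to 130738901, lay 1.99 Mb from the MYC start and 61.1 kb before the border of the region.

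**Figure D3:**
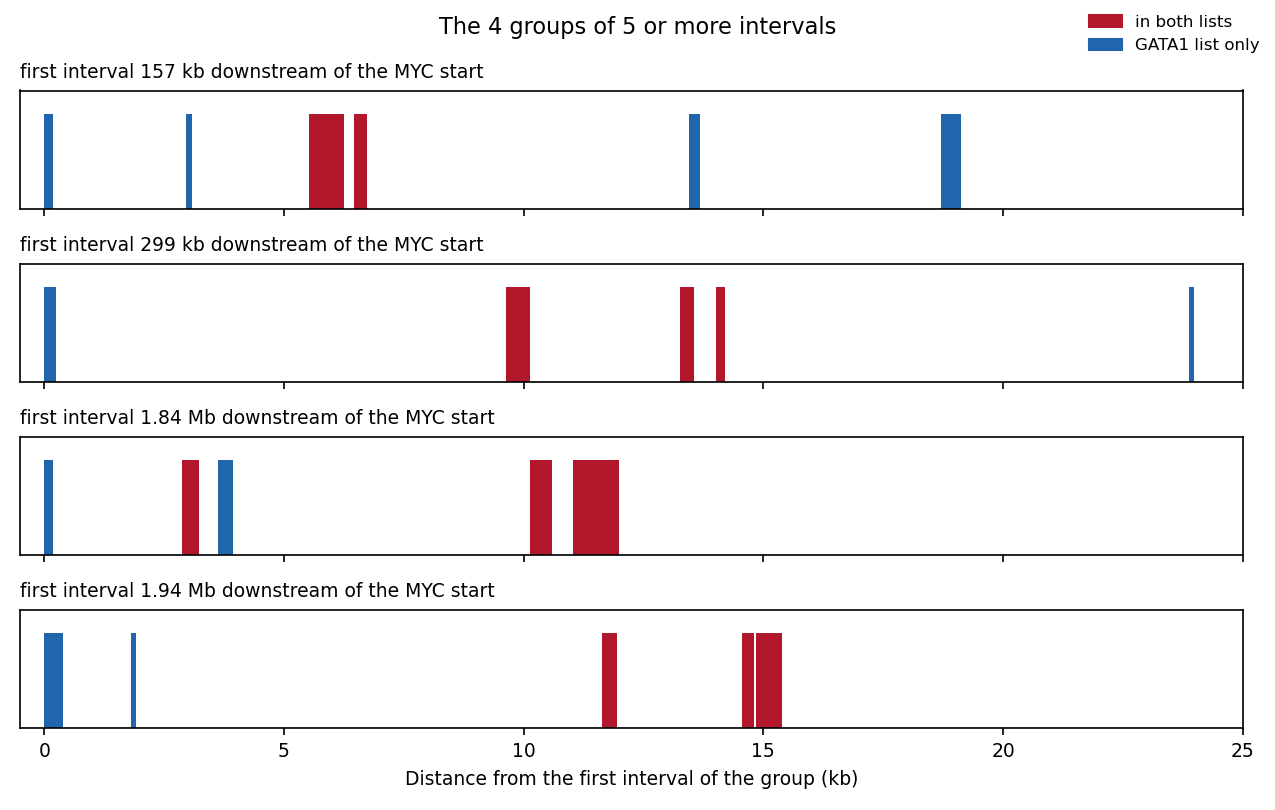
The 4 groups of 5 or more intervals, each drawn to scale by distance in kb from its first interval; red boxes are intervals in both lists and blue boxes intervals in the GATA1 list alone. The shared intervals stand at the middle of both PVT1 groups (the upper pair of rows), and both far groups (the lower pair) begin with a GATA1-only interval and end with shared ones.

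At the joining gap of 12.5 kb, 11 of the 19 shared intervals of the region lay in groups of 5 or more, and this count depended on the gap. Joining gave 25 groups, counting lone intervals as groups of 1. Of these, 12 were lone intervals, 6 had 2 intervals, 3 had 3 or 4, and 4 had 5 or more. The groups of 5 or more held 38.2% of the intervals of the region, against 14.7% of all intervals in the lists. They held 57.9% of the shared intervals of the region, against 17.8% of all shared intervals in the lists. Intervals were 2.61 times as dense in the region as in the whole lists, and denser intervals join into larger groups at a fixed gap. These shares are thus not independent of the density. With a gap of 5 kb the region had 0 groups of 5 or more, while 4.35% of all shared intervals lay in such groups, and with a gap of 25 kb it had 4, with 14 of its shared intervals (73.7%), against 36.3% of all. Within groups of that size, 52.4% of the GATA1 intervals of the region were also TAL1 intervals (11 of 21, 29.8 to 74.3%), against 36.2% in all such groups. That value lies inside the interval, so a difference was not resolved with 21 intervals.

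TAL1 was listed in 4 of the 4 groups of 5 or more, against 88.6% of the 560 such groups in the lists. It was listed in 2 of 3 groups of 3 or 4 (66.7%), against 69.4% of all such groups, and in 2 of 6 groups of 2 (33.3%), against 53.1%. These shares of all groups include groups whose TAL1 intervals are TAL1-only, a class that the region lacks. Of the 12 lone GATA1 intervals of the region 3 (25%) were also TAL1 intervals, against 27.3% of all lone GATA1 intervals. By size the groups were not extreme: 312 groups in the lists had at least 6 intervals. By the number of shared intervals, 363 groups had at least 3, the number found in 3 groups of the region.

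Most neighbours that lay close together were alike, in the region as in the whole lists. Among 10 pairs of neighbours with gaps of at most 1000 bp, 5 were shared in both members (95% exact interval of that share 18.7 to 81.3%), 2 were GATA1-only in both and 3 were mixed, so 7 of 10 pairs were alike. Over all 3526 such pairs in the lists, 19.6% were shared in both members, 49.1% were GATA1-only in both and 20.0% were mixed, so 68.7% were alike. The other 401 pairs held a TAL1-only interval, a class that the region lacks. None of them was counted as alike, so the 68.7% and the 7 of 10 are not like for like. The 19.6% of all pairs with both members shared lies just inside the interval of the region. Whether such pairs are separate sites or parts of 1 bound stretch cannot be told from positions alone. Of the 36 GATA1-only intervals, 15 (41.7%) had a TAL1 interval within the joining gap, against 27.2% of all GATA1-only intervals. Their median distance to the nearest TAL1 interval was 22 kb, against 37.8 kb for all GATA1-only intervals. TAL1 intervals were 2.49 times as dense in the region as in the whole lists, so both values are not independent of that density.

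Shared intervals were wider at the median than GATA1-only intervals, in the region as in the whole lists. Shared intervals had a median width of 342 bp in the region (quartiles 277.5 and 518.5 bp) and 373 bp in the whole lists (270.0 and 489 bp). GATA1-only intervals had a median of 250.0 bp in the region (161.5 and 376.5 bp) and 264 bp in the whole lists (168 and 389 bp). Of the shared intervals of the region, 12 of 19 (63.2%) were at least as wide as the median of all intervals, 297 bp, against 69.0% of all shared intervals. Of the GATA1-only intervals 15 of 36 (41.7%) were, against 42.2% of all GATA1-only intervals. Both lists give the same boundaries to a shared interval, so a width is not a measurement of either factor.

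**Figure D4:**
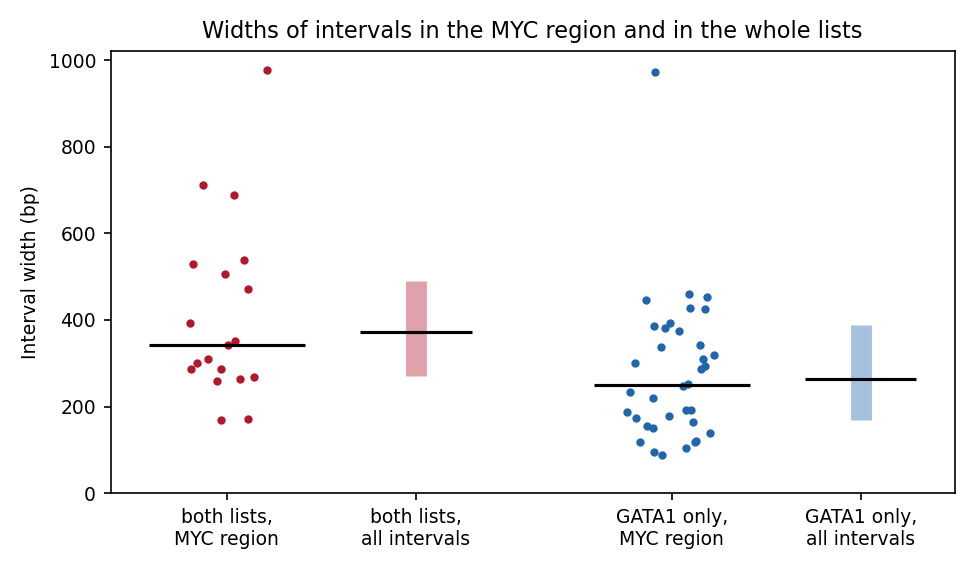
Interval widths in bp; points are the 19 shared and 36 GATA1-only intervals of the MYC region with their median as a line, and each shaded bar gives the quartiles of the same class over all chromosomes counted, with the median as a line. The medians are 342 bp in the region and 373 bp in the whole lists for shared intervals, and 250.0 and 264 bp for GATA1-only ones.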

How the data were processed

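The deposited lists have 3 columns without a header (chromosome, start, end) and no height, score or p-value. Trimmomatic, Bowtie2, MACS2, deepTools and hg19 are named without versions per the submitters' processing notes; thresholds and any pooling are not given in the sources used here. Intervals with the same start and end in both lists were called shared, and there were 0 partial overlaps between the lists. With boundaries this alike, the intervals cannot be taken as called independently in each list. The 4 mitochondrial TAL1 intervals were left out. Positions count from 1. Gene positions are those of the rule that defines the region, and MYC was taken with 1 kb on either side, a margin set after the positions were seen. Groups were formed by joining neighbours up to 12.5 kb apart. Work was done in Python 3.11.15 with pandas 2.3.3 and scipy 1.17.1 (exact Clopper-Pearson intervals), with chromosome lengths of hg19 from circlize 0.4.16. Classes and groups were tested on simulated lists. With 1 library per factor no p-value was computed: values of the region stand beside those of the whole lists. Named intervals are the nearest to the MYC start, those in MYC and PVT1, those of the largest groups (4, because 3 tied for second place), the widest and the first and last. Intervals named outside these sets were picked after their positions were seen. The members and lists were chosen with earlier results of these data known, so the density of the region is not independent of that choice.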

Additional observations from a re-analysis of the deposited data

How the results depend on the processing

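Of 20 alternatives, 4 could not move their value because shared intervals have identical boundaries (the 3 for the share of TAL1 intervals in the GATA1 list, and overlap by 1 bp for the share of GATA1 intervals). Of the other 16, 13 stayed within 1.5 times the reported count or ratio, or within the 95% exact interval of the reported share. Keeping only intervals of the median width of all or wider left 27 of 55 intervals and 7 of 13 groups of 2 or more, because fewer intervals were counted. The share of GATA1 intervals with TAL1, 34.5%, was 40.0% with TAL1 within 1000 bp and 44.4% among wide intervals (42.2% of wide intervals in the whole list). With intervals within 2 kb joined to 1 site it was 33.3% (14 of 42 sites), against 33.6% of all sites. Joining at 5 kb gave 14 groups of 2 or more, and at 25 kb 10; the largest group had 4 intervals at 5 kb and 8 at 25 kb, against 6. The count of shared intervals in groups of 5 or more, 11, was 0 at 5 kb, because no group reached that size, and 14 at 25 kb. The alternatives with joined sites for the share and with other gaps for this count were added after the data were seen. The density ratio ranged from 2.45 to 3.28. No paired analysis was possible because each factor has 1 library. Read numbers are unknown, so intervals missing from the TAL1 list may lie below its detection limit.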
